A study of Mus musculus with 55 samples.

Results

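The genes described here are 9 that act in TGF-beta signalling or belong to the matricellular proteins: the ligands Tgfb1, Tgfb2 and Tgfb3, the docking receptor Lrrc32, the secreted proteins Thbs1, Sparc, Postn and Tnc, and the transcription cofactor Vgll3. They are 9 of the 31933 genes counted in the series, and all 9 passed the filter on low counts in every fit. The list was chosen with earlier results of these libraries known. Among the measured values known when it was drawn up were the higher Lrrc32 level in corticosterone-treated brown fat at 22 °C and the higher Sparc level in corticosterone-treated gonadal fat at 22 °C. These 2 differences are therefore given below as a description, without a p-value, and no count over the 9 genes is support for a pattern. Which values, if any, brought in the other 7 genes is not recorded.

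Male C57BL/6NRj mice aged 10 weeks drank water with corticosterone (GC), the main glucocorticoid hormone of mice, or placebo (Ctrl) for 4 weeks, and were housed at 22 °C (RT) or at 13 °C (CT). Laser capture microdissection was used to cut areas out of 3 depots, the interscapular brown depot (iBAT) and the white depots under the skin (scWAT) and around the gonads (goWAT), which were sequenced from about 2 ng of RNA each. How the captured areas were chosen is not given in the sources used here. The 55 libraries form 12 groups, of 5 libraries each except Ctrl_RT, with 3 in iBAT and 4 in either white depot, and scWAT GC_CT, with 4. The labels link no library to an animal, so every p-value measures the spread between these libraries, which may in part be technical.

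TGF-beta ligands are secreted in a latent form, wrapped in their own propeptide. Latent TGF-beta is bound to matrix proteins or, through Lrrc32 (also called GARP), to the cell surface, and must be released before it can reach its receptors and the SMAD transcription factors behind them. Thrombospondin-1, the product of Thbs1, is one known activator of latent TGF-beta. Matricellular proteins such as thrombospondin-1, SPARC, periostin (Postn) and tenascin-C (Tnc) sit in the extracellular matrix and change how cells interact with it rather than bearing load. In adipose tissue, TGF-beta signalling is known for holding back adipocyte differentiation and for driving collagen deposition, and SPARC is likewise known to hold back adipogenesis. VGLL3 binds the TEAD transcription factors, partners also used by YAP1.

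Promoter sequences were at hand in RefSeq (GRCm38.p6) for 6 of the 9 genes, in 8 windows covering the 250 bases before an annotated start. They are shown for Vgll3, the gene past the threshold in the most corticosterone comparisons below, and for Tgfb2, a ligand past it in none. The Vgll3 window lies on chromosome 16 of GRCm38.p6, plus strand (chr16:65814939-65815188), and the Tgfb2 window on chromosome 1, minus strand (chr1:186705990-186706239). Both lie outside annotated UTRs and are written 5′ to 3′ on the strand of the gene. Capitals mark matches, on either strand, to TGTTCT (the glucocorticoid receptor half-site), GGAATG (the TEAD motif) and CAGAC (a SMAD motif), none of which overlap here.
Vgll3: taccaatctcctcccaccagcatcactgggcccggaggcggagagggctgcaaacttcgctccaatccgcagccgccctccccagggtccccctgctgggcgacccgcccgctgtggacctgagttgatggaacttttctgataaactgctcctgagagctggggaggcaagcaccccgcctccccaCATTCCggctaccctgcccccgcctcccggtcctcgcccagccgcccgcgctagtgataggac
Tgfb2: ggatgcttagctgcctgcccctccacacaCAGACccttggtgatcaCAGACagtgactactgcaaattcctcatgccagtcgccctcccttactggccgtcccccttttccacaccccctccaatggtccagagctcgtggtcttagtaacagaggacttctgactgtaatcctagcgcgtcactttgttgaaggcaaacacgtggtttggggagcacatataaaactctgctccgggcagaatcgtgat
The Vgll3 window held 1 TEAD match and none of the other motifs, and the Tgfb2 window held 2 SMAD matches. Over all 32851 promoter windows of this length, 12.6% held the TEAD motif, 42.2% the SMAD motif and 16.1% the receptor half-site. Of the 8 windows, only that of Sparc held the half-site, with 2 matches, and only that of Vgll3 held the TEAD motif. These are letter matches and say nothing about binding.

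Counts per library ran from 8622178 to 56450653 in scWAT, 12310822 to 53121372 in goWAT and 14043773 to 35790654 in iBAT. The depots differed in their markers as labelled: 7 brown adipocyte genes summed to 3616 to 22166 CPM in every iBAT library, and to at most 1478 in goWAT and 2777 in scWAT. Several libraries stand apart. Macrophage genes (10 genes, among them Cd68, Adgre1 and Lyz2) summed to 11370 and 7327 CPM in scWAT GC_RT replicates 2 and 3, against at most 1677 in the other scWAT libraries, and to 4786 in iBAT GC_RT replicate 5. In iBAT the set left out as macrophage-rich was GC_RT replicate 5 together with Ctrl_RT replicate 1. The iBAT Ctrl_RT libraries summed to at most 469 CPM. Epithelial genes (Krt8, Krt18, Krt19, Epcam and Cdh1) summed to 74.0 to 333 CPM in scWAT GC_CT replicates 3, 4 and 5 and 88.3 in Ctrl_CT replicate 3, against at most 2.59 in the other scWAT libraries. Mesothelial genes (Upk3b, Msln, Wt1, Lrrn4 and again Krt19) summed to 1.17 to 117 CPM in scWAT GC_CT and 2.12 to 38.7 in Ctrl_CT. They reached at most 4.96 in Ctrl_RT and 3.67 in GC_RT. Which tissue these transcripts came from was not tested. In goWAT, epididymal genes summed to 513 and 3560 CPM in Ctrl_CT replicates 1 and 4 and 1423 in GC_RT replicate 5, against at most 48.4 in the others, and brown adipocyte genes to 931 and 1478 in GC_RT and GC_CT replicate 1, against at most 75.0. GC_RT replicates 2 and 4 had 7.04% and 9.87% mitochondrial counts, the highest in goWAT, and the fewest counts. In iBAT, skeletal muscle genes summed to 295, 342 and 824 CPM in Ctrl_RT replicate 3 and in replicate 4 of Ctrl_CT and GC_CT, against at most 140 in the others. Muscle genes also reached 2148 CPM in scWAT GC_RT replicate 2, one of the macrophage-rich libraries. The 9 genes and the pathway genes named below were fitted again without each of these sets, and values are given where a call was lost. Adipocyte genes (7 genes, among them Adipoq, Lep and Fabp4) summed to 40350 to 232653 CPM in goWAT GC_RT, against at most 61798 in the other goWAT groups. In scWAT GC_CT they summed to 36581 to 129783 CPM, against at most 71262 in the other scWAT groups. No set of libraries was defined by these genes, and the part of adipocyte transcripts was not tested. In all these bulk samples, fewer cells of a type and less RNA per cell cannot be told apart.

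Levels are CPM, read counts scaled to the TMM-adjusted size of each library. Differences are log2 fold changes with their standard errors, from the quasi-likelihood test of edgeR, with p-values adjusted by Benjamini-Hochberg over all genes tested, and a gene passes the threshold at an adjusted p under 0.05. Gene positions are those of GRCm38 and span the whole gene. With corticosterone at 22 °C, Thbs1, Sparc, Tgfb3 and Vgll3 were past the threshold and higher in both white depots. In goWAT these were 4 of 9 genes, against 5.98% of the 20175 genes tested, and in scWAT again 4 of 9, against 6.93% of 19003. In iBAT 1 of 9 passed (Lrrc32), against 0.664% of 17163. Sparc in goWAT and Lrrc32 in iBAT are the differences used in the choice of genes, so nothing is read from their part in these counts. The median log2 fold change of the 9 was 1.1 in scWAT, 0.59 in goWAT and 0.31 in iBAT, beside 0.06, 0.05 and 0.01 over all genes tested. No gene of the list was past the threshold and lower with corticosterone in any depot.

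With corticosterone at 13 °C, 1 of 9 passed in goWAT (Vgll3), against 1.45% of all genes, and 2 of 9 in scWAT (Vgll3 and Lrrc32), against 2.59%. In iBAT 0 of 9 passed edgeR's test at 13 °C, against 0.728%, with 3 at an unadjusted p under 0.05, 1 by DESeq2 and 0 by limma voom. The medians at 13 °C were 0.16, 0.59 and 0.20 in iBAT, goWAT and scWAT, beside 0.02, 0.01 and 0.01 over all genes. The groups compared at 22 °C and at 13 °C share no library. Their spread was estimated together in 1 fit per depot, so the 2 tests are not independent.

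**Figure D1:**
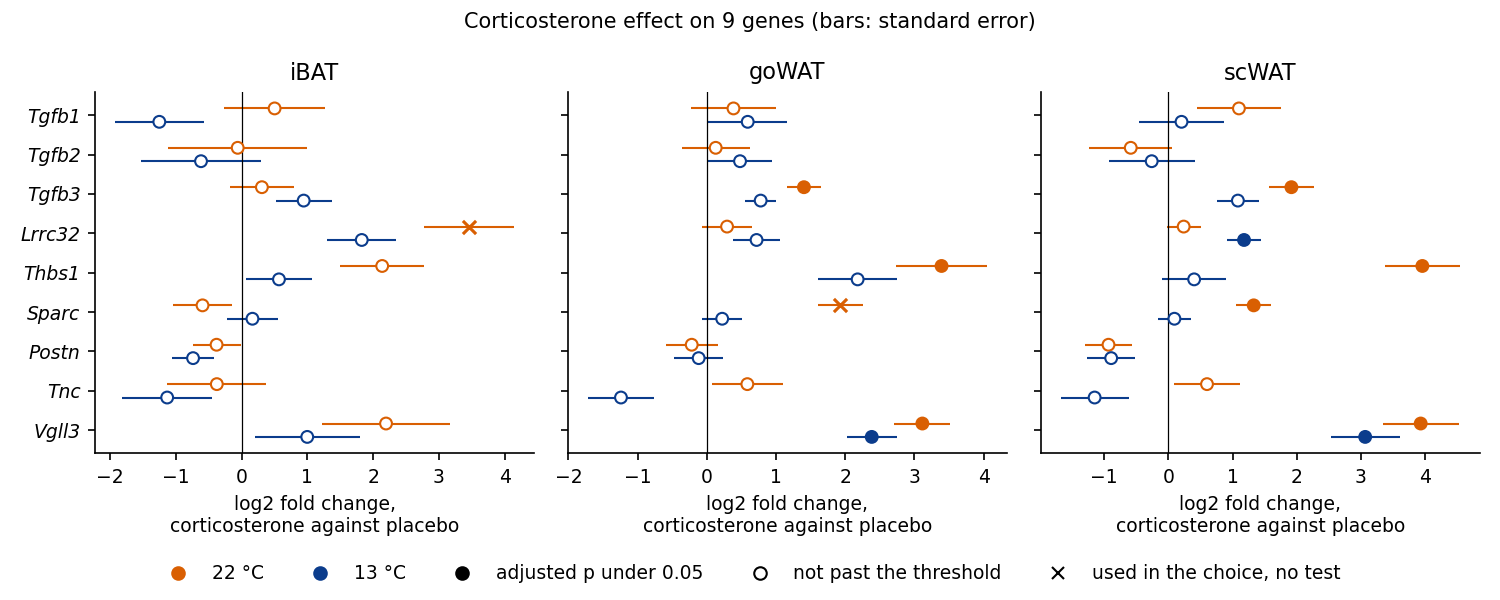
Log2 fold change of corticosterone against placebo for the 9 genes (rows) in each depot (panels) at 22 °C (orange) and 13 °C (blue), with bars for the standard error and filled points for an adjusted p under 0.05. Crosses mark Lrrc32 in iBAT and Sparc in goWAT at 22 °C, which were used in choosing the genes and carry no test. Vgll3 is filled in both white depots at both temperatures, and Thbs1 and Tgfb3 are filled there at 22 °C.

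Among the ligands, Tgfb3 (ENSMUSG00000021253, chr12:86056745-86079041, minus strand) was the one past the threshold for corticosterone within a depot. In goWAT it stood at 8.28, 8.997, 13.7 and 10.8 CPM in the 4 Ctrl_RT libraries and at 35.8, 25.3, 28.2, 17.6 and 31.4 in the 5 GC_RT libraries. The groups did not overlap, and the difference was 1.4 ± 0.25, adjusted p = 0.00162. At 13 °C, Tgfb3 in goWAT was at 12.3, 14.5, 16.6, 14.1 and 18.97 CPM with placebo and 21.7, 29.95, 37.7, 19.98 and 21.9 with corticosterone. These groups did not overlap either, but the difference of 0.78 ± 0.23 missed the threshold (adjusted p = 0.0836). In scWAT, Tgfb3 was at 5.58, 3.93, 3.94 and 4.44 CPM in Ctrl_RT and 18.005, 9.21, 21.1, 15.5 and 20.7 in GC_RT, a rise of 1.92 ± 0.35, adjusted p = 0.00175. At 13 °C it was at 2.08 to 6.28 CPM with placebo and 7.32 to 16.6 with corticosterone, again with no overlap, and at 1.08 ± 0.33, adjusted p = 0.0811. In iBAT its level was lower, at 2.78 to 3.904 CPM in Ctrl_RT and 2.79 to 7.697 in GC_RT, where the groups overlapped (0.31 ± 0.48, adjusted p = 0.881). An exon of Tgfb3 overlaps the transcript Gm48008 on the other strand, and the library protocol marks no strand, so their reads cannot be told apart.

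The other ligands, Tgfb1 (ENSMUSG00000002603, chr7:25687002-25705077, plus strand) and Tgfb2 (ENSMUSG00000039239, chr1:186622792-186705989, minus strand), were close to the lower end of what these libraries can measure. Tgfb1, the ligand best known from fibrosis and immune regulation, had 2 to 26 counts in the lowest library of each group and group means of 0.3303 to 2.49 CPM. Its highest library was scWAT GC_RT replicate 5, with 6.56 CPM against 0.608 to 2.10 in the other 4 of that group. The difference in scWAT at 22 °C was 1.1 ± 0.66, adjusted p = 0.353, and in goWAT 0.39 ± 0.61, adjusted p = 0.756. Tgfb2, known for its roles in development, was at 1.95 to 3.97 CPM in goWAT Ctrl_RT and 1.304 to 4.58 in GC_RT, with full overlap (0.13 ± 0.49, adjusted p = 0.908). Neither gene passed the threshold in any comparison within a depot. At counts this low a change of the size seen for Tgfb3 may not be detectable, and neither gene is shown to be unchanged.

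Lrrc32 (ENSMUSG00000090958, chr7:98489283-98502181, plus strand), which docks latent TGF-beta to the cell surface and is best known from regulatory T cells and platelets, was higher with corticosterone in brown fat. In iBAT it was at 6.62, 3.402 and 6.02 CPM in the 3 Ctrl_RT libraries and at 58.7, 127, 54.3, 33.3 and 20.1 in the 5 GC_RT libraries, without overlap. The group means were 5.35 ± 1.71 CPM (SD, n = 3) and 58.8 ± 41.5 CPM (SD, n = 5). At 13 °C the placebo libraries were at 7.04, 5.46, 4.36, 4.89 and 1.696 CPM and the corticosterone libraries at 7.04, 8.64, 5.29, 26.2 and 35.8. Replicates 4 and 5 of GC_CT were high and the other 3 near the placebo range, and the difference of 1.83 ± 0.53 missed the threshold (adjusted p = 0.127). Between the corticosterone groups, 13 °C against 22 °C gave -1.82 ± 0.52, a value that contains the GC_RT libraries used in choosing Lrrc32 and is given without a test. The difference at 22 °C was 3.46 ± 0.69 with all libraries. It stayed at 2.95 to 3.86 under the alternatives tried, but fell below the threshold in 7 of 26 of them, including each time 1 of the 3 Ctrl_RT libraries was left out (3.22 to 3.64) and without the muscle-rich or the macrophage-rich libraries (3.57 and 3.86). Both of these sets hold 1 of the 3 Ctrl_RT libraries, whose loss alone ended the call.

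In the white depots Lrrc32 had a higher starting level and a smaller difference. In goWAT it was at 19.1, 16.6, 29.4 and 34.98 CPM in Ctrl_RT and 64.5, 31.8, 23.2, 15.7 and 18.3 in GC_RT, with overlap (0.29 ± 0.36, adjusted p = 0.674). In scWAT it was at 16.6, 9.55, 18.9 and 10.7 CPM in Ctrl_RT and 15.7, 15.02, 13.04, 15.3 and 23.2 in GC_RT (0.24 ± 0.26, adjusted p = 0.648). At 13 °C in scWAT, the 5 Ctrl_CT libraries lay close together at 10.7, 11.8, 10.1, 10.1 and 10.3 CPM and the 4 GC_CT libraries at 14.03, 25.9, 22.1 and 33.8, all above them. Lrrc32 rose there by 1.18 ± 0.26, adjusted p = 0.0161. The 3 highest of those GC_CT libraries are the ones with epithelial transcripts. Without them and Ctrl_CT replicate 3, which leaves a single GC_CT library assumed to vary like the other groups, the difference was 0.40 and was not called, and without GC_CT replicate 5 alone it was 0.996 (adjusted p = 0.0666). The part of epithelial or mesothelial tissue in this result was not tested. Of 5 regulatory T cell markers, Foxp3, Ctla4 and Tnfrsf18 did not pass the filter on low counts in iBAT. The 5 summed to 3.33 to 11.1 CPM in iBAT Ctrl_RT and 3.14 to 11.3 in GC_RT, and neither marker tested, Il2ra or Ikzf2, passed the threshold there. Platelet genes summed to 19.6 to 57.1 and 4.17 to 45.6 CPM, and 8 endothelial genes to 235 to 468 and 421 to 817 CPM. Between 0 and 4 of the 5 regulatory T cell markers were at 0 in each GC_RT library, and 2 or 3 in each Ctrl_RT library. The part of these cells in the Lrrc32 values was not tested.

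Thbs1 (ENSMUSG00000040152, chr2:118111876-118127133, plus strand), an activator of latent TGF-beta and an inhibitor of vessel growth, had the largest fitted difference of the 9 genes with corticosterone at 22 °C in both white depots, within the standard errors of that of Vgll3. In goWAT the 4 Ctrl_RT libraries held 13.9, 12.8, 17.9 and 52.3 CPM and the 5 GC_RT libraries 166, 69.4, 211, 165 and 659. All GC_RT libraries lay above all Ctrl_RT libraries, and the rise was 3.39 ± 0.66, adjusted p = 0.00421. In scWAT, Ctrl_RT was at 13.3, 22.2, 5.19 and 16.7 CPM and GC_RT at 123, 155, 462, 177 and 194. Here too the groups did not overlap, and the rise was 3.96 ± 0.58, adjusted p = 0.000320. Without the 2 macrophage-rich libraries, of which replicate 3 was the highest for Thbs1, it was 3.52 (adjusted p = 0.00155). In iBAT, Thbs1 was at 25.9, 9.31 and 11.3 CPM in Ctrl_RT and 36.3, 34.3, 104, 66.4 and 102 in GC_RT. The groups did not overlap, but the difference of 2.14 ± 0.64 did not pass edgeR's test (adjusted p = 0.151). Of 26 alternatives, DESeq2 alone called it (adjusted p = 0.0214). The annotation has a transcript on the other strand, Gm29233, within exons of Thbs1, and their reads cannot be told apart.

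At 13 °C, Thbs1 in goWAT was at 22.01, 42.8, 56.3, 27.5 and 45.1 CPM in Ctrl_CT and 56.4, 266, 146, 107 and 302 in GC_CT. The lowest GC_CT library was just above the highest Ctrl_CT library, and the difference of 2.18 ± 0.57 missed the threshold (adjusted p = 0.0627), although 10 of 28 alternatives called it. In scWAT it was at 15.4, 25.5, 14.2, 9.92 and 48.9 CPM in Ctrl_CT and 10.7, 25.9, 32.3 and 50.4 in GC_CT. These groups overlapped almost fully (0.4 ± 0.50, adjusted p = 0.789). Thbs1 is abundant in platelets as well as in stromal cells. Of 6 platelet genes, Pf4 alone was past the threshold in scWAT GC_RT (higher, 1.48 ± 0.41), and the other 5 had differences of -1.31 to 0.35. The 6 summed to 59.8 to 152 CPM in Ctrl_RT and 135 to 480 in GC_RT of scWAT, and the part of platelets in the Thbs1 values was not tested.

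**Figure D2:**
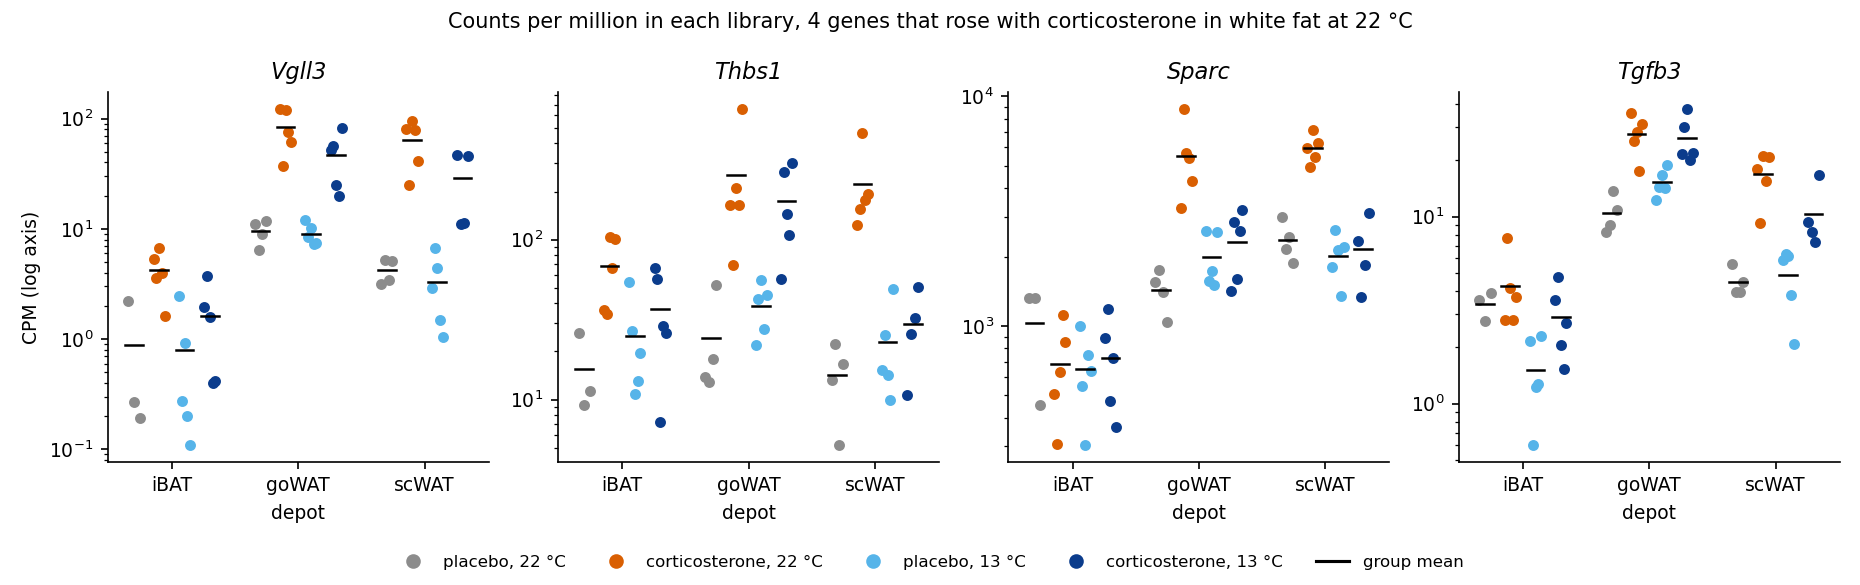
CPM of Vgll3, Thbs1, Sparc and Tgfb3 in each library (points, log axis) by depot and group, with a line at each group mean. In goWAT and scWAT every corticosterone library at 22 °C (orange) lies above every placebo library at 22 °C (grey) for all 4 genes. They are shown because they were higher in these contrasts, so the separation is no further result. Sparc in goWAT was used in choosing the genes. The share of all tested genes that separate in this way was not counted.

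Sparc (ENSMUSG00000018593, chr11:55394500-55423183, minus strand) encodes a collagen-binding matricellular protein and was the most abundant of the 9. In goWAT it stood at 1550.0, 1756, 1406 and 1040.1 CPM in Ctrl_RT and 3269.8, 8822, 5673, 5379.6 and 4269 in GC_RT, without overlap and with a difference of 1.93 ± 0.32. At 13 °C it was at 2604, 1571, 1745, 1505 and 2564 CPM in Ctrl_CT and 1419.9, 2842, 1599, 2592 and 3202 in GC_CT. These overlapped, and the difference was 0.22 ± 0.29, adjusted p = 0.777. In scWAT, Sparc was at 2983, 2169, 2443 and 1889.7 CPM in Ctrl_RT and 5972, 4908, 7169, 5460.0 and 6278 in GC_RT. It rose by 1.33 ± 0.27, adjusted p = 0.00422, and by 1.32 without the macrophage-rich libraries. At 13 °C the scWAT libraries were at 1806, 2633, 2138, 1352 and 2206 and 2344, 1346, 1853 and 3103 CPM, with overlap (0.09 ± 0.26, adjusted p = 0.920). In iBAT its level was 1332, 1321 and 452 CPM in Ctrl_RT and 507, 308, 635, 1119.8 and 858 in GC_RT, which overlapped (-0.59 ± 0.44, adjusted p = 0.683). Beside the Sparc values, the 10 fibroblast and progenitor genes summed to 1189 to 1573 CPM in Ctrl_RT and 1392 to 3028 in GC_RT of goWAT, and to 1402 to 3243 and 2082 to 3739 in scWAT. In scWAT at 22 °C, Dpt and Mfap5 of this list rose and Lum fell. In goWAT Dpt rose and Lum fell. The part of fibroblast content in the result was not tested.

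Postn (ENSMUSG00000027750, chr3:54361109-54391037, plus strand), a matricellular protein of fibroblasts, was not past the threshold in any comparison within a depot. In scWAT it was at 310.5, 246, 269 and 112 CPM in Ctrl_RT, 50.9, 198, 183, 69.3 and 112 in GC_RT, 109, 81.7, 98.5, 153 and 158 in Ctrl_CT and 50.2, 92.4, 72.9 and 43.2 in GC_CT. Corticosterone against placebo gave -0.93 ± 0.37, adjusted p = 0.130 at 22 °C and -0.89 ± 0.37, adjusted p = 0.240 at 13 °C, both with overlapping groups, although the difference at 22 °C passed without the macrophage-rich libraries (adjusted p = 0.0199). In goWAT it was at 38.02 to 73.5 CPM in Ctrl_RT and 22.9 to 69.4 in GC_RT (-0.22 ± 0.38, adjusted p = 0.777). In iBAT at 13 °C every GC_CT library lay below every Ctrl_CT library, at 21.5 to 48.7 against 51.3 to 86.8 CPM, without passing (-0.74 ± 0.32, adjusted p = 0.416). Tnc (ENSMUSG00000028364, chr4:63959785-64047015, minus strand), an adhesion-modulating protein of remodelling tissue, was low, at group means of 0.7102 to 9.26 CPM and down to 2 counts in iBAT. In goWAT it was at 2.28, 5.15, 3.92 and 5.56 CPM in Ctrl_RT, 2.61, 6.74, 9.26, 9.61 and 3.55 in GC_RT, 7.65, 4.74, 8.35, 11.8 and 3.51 in Ctrl_CT and 1.28, 1.37, 1.53, 4.26 and 6.76 in GC_CT. Its differences with corticosterone in goWAT were 0.59 ± 0.51, adjusted p = 0.530 at 22 °C and -1.24 ± 0.48, adjusted p = 0.202 at 13 °C. Those in scWAT were 0.6 ± 0.52, adjusted p = 0.544 and -1.15 ± 0.53, adjusted p = 0.298. Its exons overlap the transcript 8030451A03Rik on the other strand, so their reads cannot be told apart either.

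**Figure D3:**
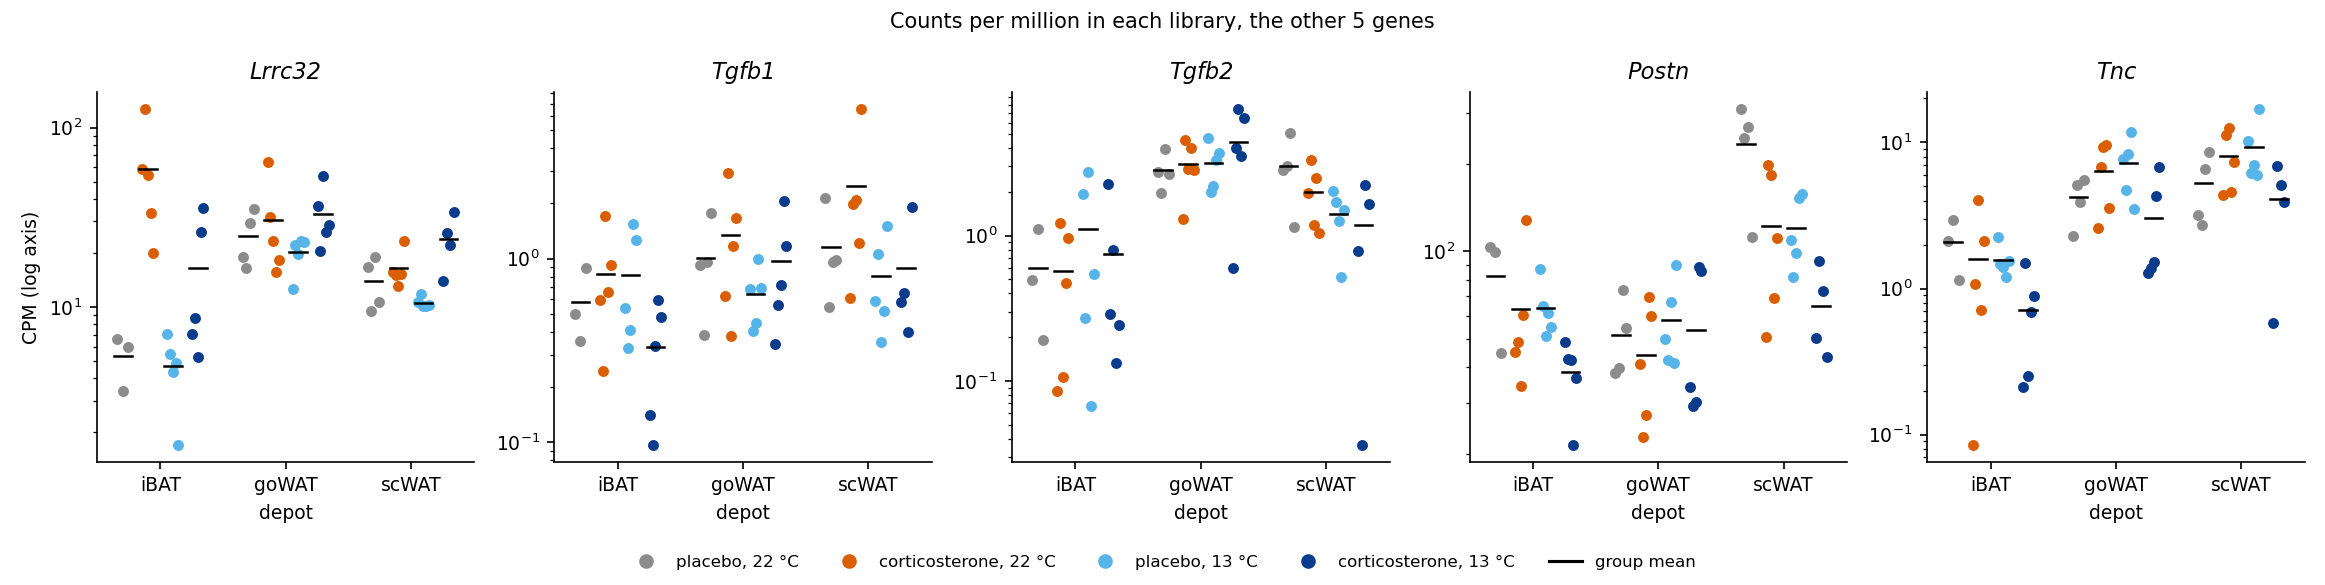
CPM of Lrrc32, Tgfb1, Tgfb2, Postn and Tnc in each library (points, log axis) by depot and group, with a line at each group mean. Lrrc32 is separated between placebo and corticosterone in iBAT at 22 °C, a difference used in choosing the genes. Tgfb1 and Tgfb2 lie mostly below 5 CPM with overlapping groups.

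Vgll3 (ENSMUSG00000091243, chr16:65815257-65866368, plus strand) was past the threshold in more corticosterone comparisons than any other of the 9 genes. In goWAT it was at 11.03, 6.48, 9.03 and 11.8 CPM in Ctrl_RT and 123, 36.8, 119.6, 75.3 and 61.3 in GC_RT, a rise of 3.11 ± 0.41, adjusted p = 8.67e-05. At 13 °C it was at 11.97, 8.47, 10.1, 7.28 and 7.43 CPM in Ctrl_CT and 51.9, 56.8, 24.7, 19.9 and 82.7 in GC_CT, a rise of 2.38 ± 0.36, adjusted p = 0.00104. The groups did not overlap at either temperature. In scWAT it was at 3.17, 5.198, 3.43 and 5.103 CPM in Ctrl_RT and 80.8, 25.1, 95.9, 79.5 and 41.01 in GC_RT, a rise of 3.93 ± 0.59, adjusted p = 0.000394. At 13 °C the values were 2.903, 6.76, 4.41, 1.48 and 1.04 CPM in Ctrl_CT and 46.7, 11.03, 11.2 and 45.6 in GC_CT, a rise of 3.07 ± 0.54, adjusted p = 0.00273. Again neither pair of groups overlapped, although GC_CT replicates 3 and 4, both with epithelial transcripts, were far below the other 2. Replicate 5, which has epithelial transcripts too, was level with replicate 1, which has none of note. In iBAT the gene was low, at 2.22, 0.269 and 0.192 CPM in Ctrl_RT and 5.34, 3.59, 6.76, 4.02 and 1.62 in GC_RT. Ctrl_RT replicate 1 lay within the corticosterone range, and the difference of 2.2 ± 0.97 did not pass (adjusted p = 0.392). The 4 calls in white fat held in every alternative run, 28 per comparison in goWAT and 26 in scWAT, but 1 of those in scWAT at 13 °C is no support. That run, without the libraries with epithelial transcripts, leaves a single GC_CT library, replicate 1, the highest for Vgll3 at 46.7 CPM.

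Mild cold on its own left the list without a call. In placebo mice, 13 °C against 22 °C gave 0 of 9 in edgeR in each depot, against 0.312% of genes in goWAT, 0.0175% in iBAT and 0% in scWAT. In each depot 1 of the 9 was at an unadjusted p under 0.05, and DESeq2 and limma voom called 0. In corticosterone-treated mice, 0 of 9 passed in iBAT, against 0.00583%, with 2 at an unadjusted p under 0.05, 1 by DESeq2 (Lrrc32) and 0 by limma voom. Lrrc32 is also among those 2. The iBAT GC_RT libraries are those used in choosing Lrrc32, so nothing is read from its part in these counts. In goWAT 0 of 9 passed, against 0.0149%, with 3 at an unadjusted p under 0.05, 1 by DESeq2 (Sparc) and 0 by limma voom. Sparc was at 1419.9 to 3202 CPM in GC_CT and 3269.8 to 8822 in GC_RT there, without overlap (-1.23 ± 0.29), and the GC_RT libraries are those used in choosing Sparc. In corticosterone-treated scWAT, 2 of 9 were lower at 13 °C, against 8.18% of genes past the threshold. Of 19003 genes, 1555 passed here with all libraries, but 2 without the macrophage-rich libraries and 4 without those with epithelial transcripts. Thbs1 was at 10.7, 25.9, 32.3 and 50.4 CPM at 13 °C and 123, 155, 462, 177 and 194 at 22 °C, a difference of -2.9 ± 0.55, adjusted p = 0.0140. Sparc was at 2344, 1346, 1853 and 3103 and 5972, 4908, 7169, 5460.0 and 6278 CPM, a difference of -1.46 ± 0.27, adjusted p = 0.0130. Neither pair of groups overlapped. Macrophage genes moved with this contrast, 9 of 10 past the threshold and lower at 13 °C, with sums of 522 to 635 CPM in GC_CT and 633 to 11370 in GC_RT. Without the 2 macrophage-rich libraries, the differences were -2.46 for Thbs1 (adjusted p = 0.0900) and -1.44 for Sparc (adjusted p = 0.0744). Without the libraries with epithelial transcripts, which leaves 1 GC_CT library, they were -4.35 and -1.31 and were not called, and leaving out GC_CT replicate 3 alone also ended both calls. The part of macrophage content was not tested.

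Whether corticosterone acted differently at the 2 temperatures was tested as an interaction, the effect at 13 °C minus that at 22 °C. In edgeR 0 of 9 passed in any depot, against 0.461% of genes in goWAT and 0% in both other depots. Of the 9, 0, 2 and 4 were at an unadjusted p under 0.05 in iBAT, goWAT and scWAT. DESeq2 called 0, 1 (Sparc) and 2 (Thbs1 and Sparc), and limma voom 0, 1 (Sparc) and 0. The interaction of Sparc was -1.71 ± 0.43 in goWAT and -1.24 ± 0.37, adjusted p = 0.279 in scWAT, the first of which contains the contrast used in choosing Sparc. That of Thbs1 was -1.21 ± 0.80, adjusted p = 0.518 in goWAT and -3.56 ± 0.75, adjusted p = 0.158 in scWAT. For Vgll3 it was -0.73 ± 0.50, adjusted p = 0.532 and -0.87 ± 0.73, adjusted p = 0.751. A call at 22 °C without one at 13 °C is thus not shown by the main test to be a difference between temperatures.

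Across depots, 1 model over the 55 libraries asked where the placebo levels differed, with both temperatures weighted equally. In goWAT against iBAT, 7 of 9 passed, against 43.3% of the 22245 genes tested. Higher in goWAT were Vgll3 (2.97 ± 0.51, adjusted p = 6.41e-06), Tgfb3 (2.06 ± 0.26, adjusted p = 6.9e-09), Lrrc32 (1.75 ± 0.34), Tgfb2 (1.44 ± 0.57), Tnc (1.18 ± 0.45) and Sparc (0.63 ± 0.25), and lower was Postn (-0.83 ± 0.28). Vgll3, Tgfb3 and Lrrc32 held in all 59 alternatives. Sparc held in 51, Tgfb2 in 52 and Tnc in 55. This contrast contains the iBAT Ctrl_RT libraries used in choosing Lrrc32 and the goWAT Ctrl_RT libraries used in choosing Sparc. The values of these genes here are therefore a description, and nothing is read from their part in the count. Postn held in 57, and was lost with the replicate number as a block (-0.77, adjusted p = 0.0574) and without iBAT Ctrl_RT replicate 1 (-0.73, adjusted p = 0.0528). In scWAT against iBAT, 3 of 9 passed, all higher in scWAT, against 19.5%. These were Vgll3 (1.65 ± 0.49), Tnc (1.5 ± 0.46) and Sparc (0.98 ± 0.25). Between the white depots 4 of 9 passed, against 14.2%. Postn was higher in scWAT (1.59 ± 0.28, adjusted p = 6.14e-05), and Tgfb3 (-1.46 ± 0.23, adjusted p = 1.42e-05), Vgll3 (-1.32 ± 0.43) and Lrrc32 (-0.91 ± 0.31) were higher in goWAT. Of these, Postn and Tgfb3 held in all 59 alternatives, Vgll3 in 54 and Lrrc32 in 46. Thbs1 and Tgfb1 passed in none of the 3. The order goWAT, scWAT, iBAT thus held for the placebo means of Vgll3, with each step past the threshold. Its placebo libraries in iBAT held as few as 2 counts, near the lower end of what can be measured. The call for scWAT against iBAT held in 58 of 59 alternatives and was lost without iBAT Ctrl_RT replicate 3 (adjusted p = 0.0655). For Sparc the difference between the white depots was 0.35 ± 0.24. It contains the goWAT Ctrl_RT libraries used in choosing Sparc and is given without a test. Beside these values, 8 of 10 macrophage genes and 6 of 10 fibroblast genes were also higher in goWAT than in iBAT, and the same counts held for scWAT against iBAT. The part of cell content was not tested.

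The corticosterone effect itself was also set against depot. At 22 °C, 2 of 9, Sparc and Lrrc32, differed between depots, against 0.742% of genes, but both were picked from a contrast that enters this test, so the values are a description only. For Sparc the effects were 1.93 ± 0.32 in goWAT, 1.33 ± 0.27 in scWAT and -0.59 ± 0.44 in iBAT. For Lrrc32 they were 0.29 ± 0.36, 0.24 ± 0.26 and 3.46 ± 0.69, in the same order. The effects of Vgll3 (2.2 ± 0.97, 3.11 ± 0.41 and 3.93 ± 0.59) were not shown to differ (adjusted p = 0.444), nor were those of Thbs1 (adjusted p = 0.396) or Tgfb3 (adjusted p = 0.131). At 13 °C, 0 of 9 passed edgeR's test, against 0.234%, with 0 at an unadjusted p under 0.05 and 0 by limma voom.

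To set the genes beside each other, levels were also expressed per kilobase of merged exon length. On this scale Sparc led in every depot, with medians over all libraries of 223, 615 and 569 CPM per kb in iBAT, goWAT and scWAT. Postn (7.098, 4.52 and 11.6) and Thbs1 (5.78, 8.55 and 3.87) came next in iBAT and scWAT, while in goWAT Tgfb3 (5.101) stood above Postn. Tgfb3 exceeded both other ligands in each depot, at 1.01, 5.101 and 1.82 CPM per kb, beside 0.126, 0.125 and 0.174 for Tgfb1 and 0.102, 0.507 and 0.258 for Tgfb2. These are levels of RNA and not of active ligand.

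The rest of the pathway was read from 6 lists. Of 5 receptor genes, 0 passed edgeR's test in any comparison of corticosterone with placebo, against 0.664% to 6.93% of all genes, with 0 to 2 at an unadjusted p under 0.05. Of 11 tested genes for latent TGF-beta binding and activation, 1 passed with corticosterone, Nrros in scWAT at 22 °C, where 6.93% of all genes passed. Nrros, which docks latent TGF-beta on myeloid cells, was higher by 1.45 ± 0.38, adjusted p = 0.0231, and at 0.53, adjusted p = 0.350 without the macrophage-rich libraries. Of 11 SMAD genes and inhibitors, Smad7, an inhibitor that TGF-beta itself induces, rose at 22 °C in goWAT (1.83 ± 0.43, adjusted p = 0.0141) and scWAT (1.69 ± 0.44, adjusted p = 0.0219), and Ski, a SMAD corepressor, rose at 13 °C in scWAT (1.02 ± 0.22, adjusted p = 0.0146). Each was 1 of 11 there, against 5.98%, 6.93% and 2.59% of all genes. Counts of 1 of 11 are not read as a result about these lists. The Smad7 call in goWAT was lost without the low-quality libraries (1.17, adjusted p = 0.138). Without the libraries with epithelial transcripts, which leaves 1 scWAT GC_CT library, the Ski difference was 0.83 and was not called. Of 15 TGF-beta target genes, Lox, the collagen cross-linking enzyme, rose in all 6 comparisons, by 2.21 ± 0.29 and 1.46 ± 0.27 in scWAT at 22 and 13 °C, by 1.94 ± 0.33 and 1.78 ± 0.30 in goWAT, and by 2.11 ± 0.36 and 1.87 ± 0.29 in iBAT. The list also holds Smad7, and Tgfbi, a secreted adhesion protein, passed in scWAT at 22 °C (1.14 ± 0.32), though not without the macrophage-rich libraries (0.78, adjusted p = 0.219). The libraries with epithelial transcripts are all at 13 °C and in neither group of this 22 °C contrast. They enter it through the filter, the scaling and the shared estimate of the spread. Without them Nrros (1.46) and Tgfbi (1.14) kept their differences but were not called either. The Lox calls held without each set of libraries, except in scWAT at 13 °C without those with epithelial transcripts. That fit leaves 1 GC_CT library, and the Lox difference there was 1.65. At 22 °C, 2 of 15 were thus higher in goWAT, against 5.98% of all genes past the threshold in either direction, 3 of 15 in scWAT, against 6.93%, and 1 of 15 in iBAT, against 0.664%, with list medians of 0.92, 0.49 and -0.11, beside 0.05, 0.06 and 0.01 over all genes.

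The next list holds Vgll genes, the TEAD factors that VGLL proteins bind and Yap1, which binds the same factors. In goWAT at 22 °C, 3 of 7 tested rose, against 5.98% of all genes, namely Yap1, a cofactor that shares the TEAD factors (1.5 ± 0.27, adjusted p = 0.00200), Tead1 (1.07 ± 0.24) and Tead4 (1.66 ± 0.39). In scWAT Yap1 rose (1.5 ± 0.24, adjusted p = 0.000498) as 1 of 7, against 6.93%, and no TEAD gene passed. In iBAT 0 of 7 passed edgeR's test at 22 °C and at 13 °C, against 0.664% and 0.728%, with 0 and 1 at an unadjusted p under 0.05. At 13 °C Tead4 rose in goWAT (2.11 ± 0.36, adjusted p = 0.00315) as 1 of 7, against 1.45%, a call lost without the epididymal-rich libraries (1.96, adjusted p = 0.0700). In scWAT at 13 °C 0 of 7 passed edgeR's test, against 2.59%, with 3 at an unadjusted p under 0.05. Tead1 gave the one interaction past the threshold among these lists, -1.54 ± 0.32, adjusted p = 0.0291 in goWAT, which was lost without the low-quality (-1.49, adjusted p = 0.0662) and without the epididymal-rich libraries (-1.49, adjusted p = 0.167). Of 14 other matricellular genes tested in goWAT at 22 °C, 2 passed, against 5.98% of all genes. Thbs2, a relative of Thbs1, rose (2.14 ± 0.59) and Smoc2, a relative of Sparc, fell (-1.42 ± 0.33), with a list median of 0.81. The Thbs2 call was lost without the epididymal-rich libraries (1.88, adjusted p = 0.0899) and that of Smoc2 without the low-quality libraries (-1.22, adjusted p = 0.0505). In scWAT 0 of 15 passed edgeR's test at 22 °C, against 6.93%, 5 had an unadjusted p under 0.05, and the list median was 0.71. For 13 °C against 22 °C in corticosterone-treated scWAT, 10 genes of these lists passed with all libraries, where 8.18% of all 19003 genes passed. The count is therefore not read as a result about the lists. Of the 10, 0 passed without the macrophage-rich libraries. The fit without the libraries with epithelial transcripts leaves 1 GC_CT library and is not counted here. With all libraries the differences were -1.95 ± 0.47 for the collagen gene Col1a1, -1.48 ± 0.40 for Thbs2, -7.45 ± 2.01 for Spp1 (osteopontin) and 1.78 ± 0.37 for Ltbp3, which binds latent TGF-beta in the matrix. Without the macrophage-rich libraries they were -1.14, adjusted p = 0.166 for Col1a1, -1.18, adjusted p = 0.164 for Thbs2, -3.16, adjusted p = 0.259 for Spp1 and 1.69, adjusted p = 0.0903 for Ltbp3. The other 6 were Col1a2, Col3a1, Timp1, Smad4 and Yap1, with lower values at 13 °C, and Ltbp2, with a higher one.

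**Figure D4:**
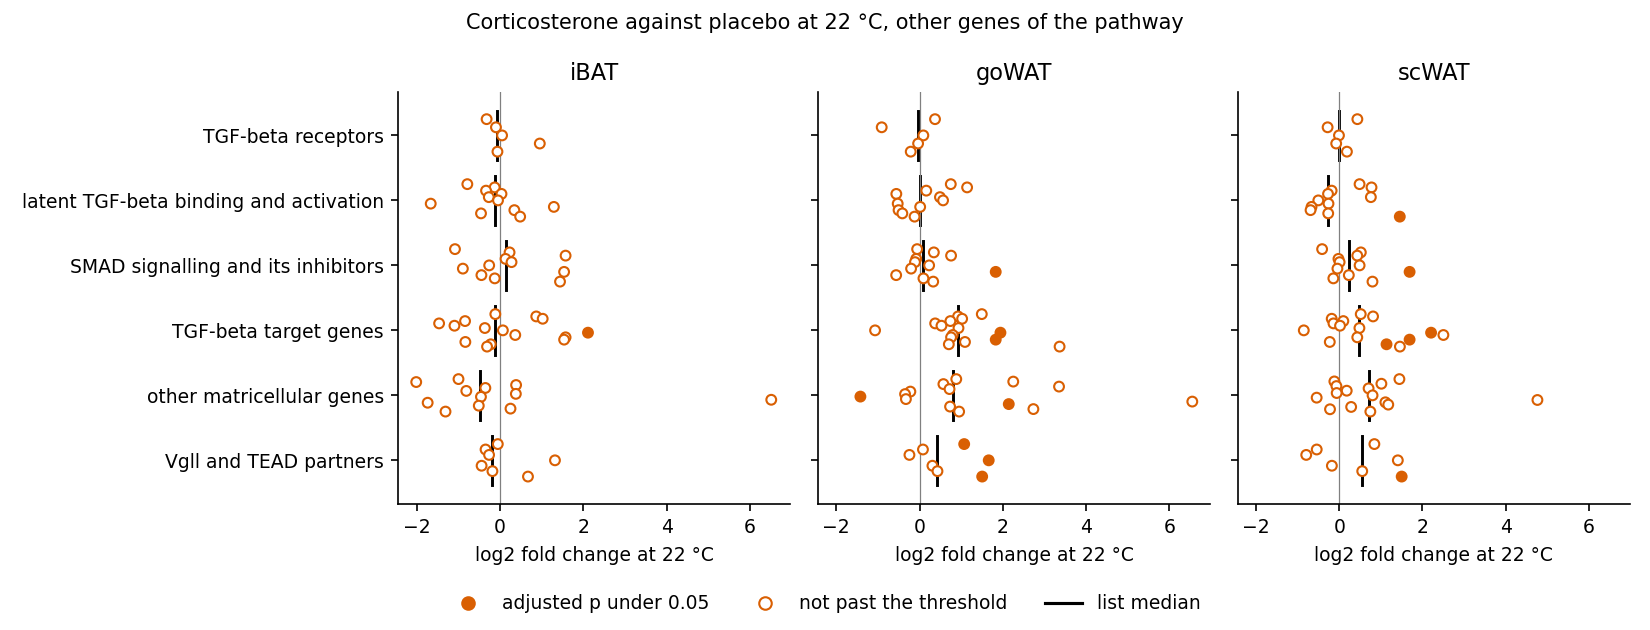
Log2 fold change of corticosterone against placebo at 22 °C for each tested gene of 6 pathway lists (rows) in the 3 depots (panels), filled where the adjusted p was under 0.05, with a line at each list median. The receptor list holds no filled point, and the target list lies furthest to the right in goWAT, with a median of 0.92.

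The gene whose 12 group means of log2 CPM followed each member most closely was picked by Pearson correlation among 7883 genes. These were Rbms1 (0.830) for Tgfb1, Fn1 (0.919) for Tgfb2, Slc31a2 (0.975) for Tgfb3, Clic4 (0.904) for Lrrc32, Vim (0.934) for Thbs1, Ctsl (0.965) for Sparc, Rdh11 (0.864) for Postn, Parp14 (0.920) for Tnc and Lep (0.979) for Vgll3. Lep encodes leptin, Vim the intermediate filament vimentin and Ctsl a lysosomal protease. The group means share depots, libraries and depth, and the highest of 7883 coefficients is high by choice, so they are a description of likeness over 12 points.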

How the data were processed

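Gene counts were made by the authors with GSNAP against mm10 and featureCounts 1.6.3, per the submitters' processing notes, and the deposited tables hold raw counts per gene for each depot. Ensembl identifiers were matched to GENCODE symbols for 31894 of 31933 genes. Libraries were compared with edgeR 4.0.16 in R 4.3.3: filterByExpr (minimum count 10), TMM scaling and robust quasi-likelihood tests over the 4 groups of a depot, or over all 12 groups between depots, with Benjamini-Hochberg adjustment over all genes tested. The code was tested on simulated data. DESeq2 1.42.0, limma 3.58.1 (voom with library weights), other size factors, no filter, the contrast's groups alone, a replicate block, and leaving out single libraries or libraries that stood apart were alternatives. CPM used TMM-adjusted library sizes, and CPM per kb used TMM over all 55 libraries. All 9 genes were named, pathway genes were named where called, and the most alike gene was taken by Pearson correlation. The 9 genes and all lists were chosen with earlier results of these data known.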

Additional observations from a re-analysis of the deposited data

Results flagged for a closer look

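Lrrc32 in goWAT Ctrl_CT had 1 library far below the others. Replicate 1 was at 12.6 CPM and the other 4 at 19.7 to 23.3, and the gap took up 0.727 of the range of the group. This was 1 of 99 sets of values checked in this way, and chance alone sets off such a check in about 1 in 20.

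For Sparc and Lrrc32, edgeR's test of unequal corticosterone effects between depots at 22 °C gave an adjusted p of 0.0153 each over 22245 genes. Both genes were chosen with a contrast that enters this test in view, so these values are a description and are not evidence of a difference between depots. Sparc was no longer called without iBAT Ctrl_RT replicate 1 or 2, and Lrrc32 was no longer called without iBAT Ctrl_RT replicate 1 or 2 or iBAT GC_RT replicate 2.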

How the results depend on the processing

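No difference of the 9 genes that was past the threshold changed sign under any alternative run, while differences short of it did, 74 times with 1 library left out, 9 with limma voom and 7 with the replicate block. With corticosterone at 22 °C, goWAT held 4 calls throughout, also with each library left out (4 to 4), among them Sparc, which was chosen on this contrast. In scWAT the 4 calls stayed throughout (4 to 4 with each library left out). Postn was called there as well without the macrophage-rich libraries (adjusted p = 0.0199 in edgeR). In iBAT the 1 call became 2 with DESeq2 and 0 without the filter or without the macrophage-rich or the muscle-rich libraries, and 0 to 1 with each library left out. Both of those sets hold 1 Ctrl_RT library, and leaving out any 1 Ctrl_RT library alone also ended the call. At 13 °C, the 1 call in goWAT became 3 with DESeq2 and with limma voom, 2 with the contrast's groups alone, 2 without the low-quality libraries and 2 without the brown-fat-rich libraries (1 to 2 with each library left out). The 2 calls in scWAT were 1 to 2 with each library left out, and iBAT gained 1 with DESeq2. The fit without the libraries with epithelial transcripts leaves a single scWAT GC_CT library, so no count is given from it for contrasts with that group. For cold in corticosterone-treated mice, the 2 calls in scWAT became 0 without the macrophage-rich libraries (0 to 3 with each library left out). DESeq2 gave 1 in iBAT (Lrrc32) and 1 in goWAT (Sparc, 0 to 1). Both contrasts contain the GC_RT libraries used in choosing these genes. For the interaction, DESeq2 gave 1 and limma voom 1 in goWAT (0 to 1), and DESeq2 gave 2 in scWAT. Between depots, leaving out each library gave 0 to 2 calls for the corticosterone effect at 22 °C, 4 to 7 for goWAT against iBAT, 1 to 6 for scWAT against iBAT and 2 to 4 for scWAT against goWAT. The cause of these changes was not tested. The correlation of deviations between same-numbered libraries had a median of -0.00219 in iBAT, 0.0110 in goWAT and -0.00261 in scWAT, and of 0.0422 (-0.166 to 0.350) for the same condition and number in another depot, against -0.0141 for other numbers, so the numbers were not taken to pair libraries. With the replicate number as a block, the 1 call in iBAT at 22 °C became 0, the 1 call in goWAT at 13 °C became 2 and the 2 calls in scWAT at 13 °C became 1, and 6 of 7 calls stayed for goWAT against iBAT. The lowest counts in a library were 2 for Tgfb1, 1 for Tgfb2, 2 for Tnc and 2 for Vgll3, all outside goWAT. Leaving the sets of libraries out for the pathway genes was chosen after seeing the data.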
